A study of Mus musculus with 6 samples.

Results

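The calcium/calmodulin-dependent kinases (CaM kinases) were examined as a family of 10 genes, Camk2a, Camk2b, Camk2d, Camk2g, Camk4, Camkk1, Camkk2, Camk1, Camk1d and Camk1g. They were chosen by symbol, each matched 1 of the 37620 genes in the deposited table, and all 10 passed the filter on low values. RNA was measured in the pre-limbic cortex (PLc), which belongs to the medial prefrontal cortex, of male C57Bl/6 mice aged 9 weeks. The saline group held mice 1, 6 and 10, which had been injected with an equal volume of saline for 5 days. The ketamine group held mice 3, 5 and 9, which had been injected intraperitoneally with 30 mg/kg of ketamine, an antagonist of the NMDA receptor, once a day for 5 days. Both groups were killed 2 days after the last injection, and each mouse gave a library of its own.

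CaM kinases are switched on by calmodulin once it has bound calcium. CaMKII, the product of Camk2a, Camk2b, Camk2d and Camk2g, is a large holoenzyme of mixed subunits that is concentrated at excitatory synapses, where calcium entering through NMDA receptors activates it. CaMKI and CaMKIV form a cascade with the kinases above them: CaMKK1 and CaMKK2 phosphorylate a threonine in their activation loop. CaMKIV acts mainly in the nucleus, on CREB, and CaMKI in the cytoplasm and in neurites.

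The threonine codons on which this regulation turns are shown for the genes printed here, because they show how alike the paralogs are and where their transcripts differ. Coordinates are those of mm9, and each window lies within a single coding exon and is written 5′ to 3′ on the strand of the gene. In the CaMKII genes, capitals mark the codon of the threonine that the holoenzyme phosphorylates on itself, which is codon 287 in each of these 3 transcripts. Camk2b is read from the minus strand at chr11:5888979-5889023, Camk2d from the plus strand at chr3:126500638-126500682 and Camk2g from the minus strand at chr14:21579640-21579684.
Camk2b: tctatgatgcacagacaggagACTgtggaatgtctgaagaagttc
Camk2d: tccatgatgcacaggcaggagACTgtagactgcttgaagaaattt
Camk2g: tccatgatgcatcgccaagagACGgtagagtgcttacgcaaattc
Of 45 bases, Camk2b and Camk2d differed at 8, of which 7 were the third base of a codon. Camk2d and Camk2g differed at 11, and Camk2b and Camk2g at 15.

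In the CaMKI genes, capitals mark the codon of the activation loop threonine that the CaMKK enzymes phosphorylate. It is codon 177 of Camk1 (minus strand, chr6:113288278-113288322), codon 180 of Camk1d (minus strand, chr2:5275719-5275763) and codon 178 of Camk1g (minus strand, chr1:195180190-195180234).
Camk1: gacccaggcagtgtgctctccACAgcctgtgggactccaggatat
Camk1d: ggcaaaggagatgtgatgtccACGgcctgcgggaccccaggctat
Camk1g: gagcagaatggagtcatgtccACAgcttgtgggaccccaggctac
These windows differed from each other at between 12 and 15 of 45 bases. The same question was asked of whole transcripts, since reads of 100 bases could be shared between paralogs. Of all words of 100 bases in the coding transcripts of the 10 kinases, 0 were found in a coding transcript of another gene. Exon bases were shared with a gene on the opposite strand for Camk1, at 232 bases with Ogg1, which averaged 163 normalized counts, and for Camk4, at 182 bases with 2310026I22Rik, which averaged 9.99.

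Depth was alike in both groups, at between 26273436 and 32643726 reads per library. The values, called normalized counts, are reads scaled to a common library size. Saline mice 1 and 6 were the most alike of the 15 pairs of libraries (Pearson's r of 0.992 across genes). Ketamine mouse 9 was the library least like the others, with r between 0.954 and 0.959 to each of them. By r, ketamine mouse 5 was the ketamine mouse most like each saline mouse, at 0.982, 0.981 and 0.9735 to saline mice 1, 6 and 10. For ketamine mouse 3 these values were 0.965, 0.961 and 0.970. Saline mouse 10 differed from the other saline mice. Its summed count over 8 oligodendrocyte markers was 381700, against 58040 and 45730 in saline mice 1 and 6 and between 107300 and 164000 in the ketamine mice. Slc17a7, which encodes the vesicular glutamate transporter of cortical excitatory neurons, was detected in every library but not at an even level. It had 49417, 48207 and 32973 normalized counts in saline mice 1, 6 and 10 against 22152, 40369 and 32985 in ketamine mice 3, 5 and 9.

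In saline mice the family was dominated by Camk2a. Per kilobase of exon its level was 14680 ± 1759 normalized counts (SD, n = 3), and it ranked first in all 6 libraries. Camk2b came next at 2643 ± 287 per kilobase and ranked second in all 6. Below them, on the same scale, stood Camk2g (1877 ± 281), Camkk2 (1739 ± 677) and Camkk1 (1235 ± 17.0). Camk2g and Camkk2 overlapped between saline mice, and so did Camkk2 and Camkk1. Camk4 had 752.8 ± 287 normalized counts per kilobase and Camk1d 668.4 ± 54.6, again with overlap. Camk1g (411.4 ± 134) and Camk1 (372.2 ± 103) overlapped too, and Camk2d was lowest at 159.6 ± 50.4. The place of the last genes rests on the length used. With the longest coding transcript of each gene as its length, a choice made after seeing the data, Camk1 took rank 5 instead of rank 9, at 1509 ± 419 per kilobase, and Camk2d stood at 584.4 ± 185, above Camk1g at 522.4 ± 170. Together the 10 genes took between 0.385% and 0.614% of the normalized counts of a library.

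**Figure D1:**
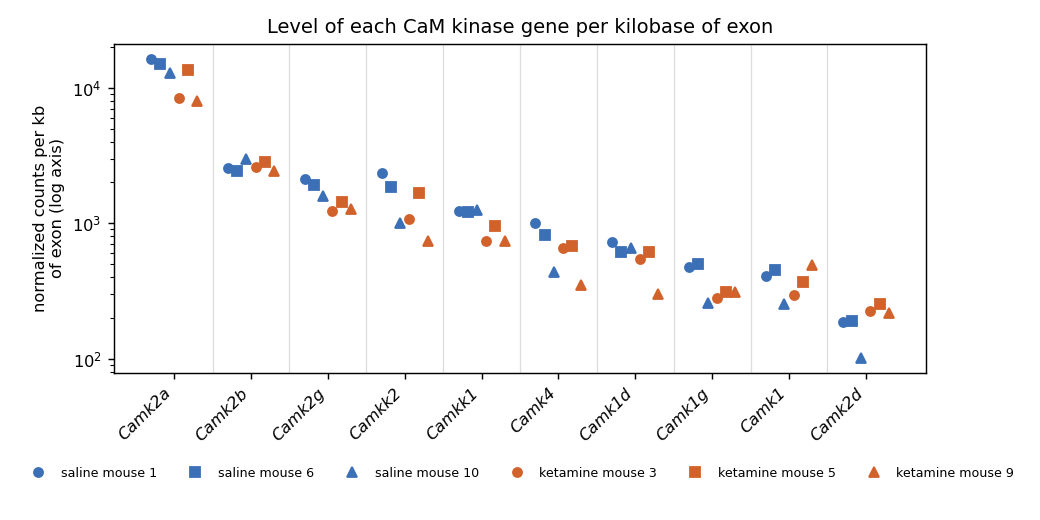
Normalized counts per kilobase of exon (log axis) of each CaM kinase gene, ordered by the saline mean, with a point for each of 3 saline mice (blue) and 3 ketamine mice (orange). Camk2a lies above every other kinase in all 6 mice, at between 7996 and 16300 per kilobase.

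Expression was compared between ketamine and saline mice to ask whether the kinases downstream of NMDA receptor calcium differed after the drug. In the ketamine mice 8 of the 10 kinases had lower and 2 higher estimates, and the median log2 fold change was -0.46, against -0.015 over all 16127 genes tested. These counts include Camk2b (log2 fold change -0.0062) as lower and Camk1 (0.065) as higher. Both changed sign under some alternatives, so neither had a settled direction. None of the 10 passed an adjusted p of 0.05 in limma on log2(normalized count + 1), a test that called 0 genes in all (0.0%). At an unadjusted p under 0.05 limma listed 3 kinases, Camkk1, Camk2g and Camk2d, beside 5.81% of all genes. On the reads recovered from the normalized counts, edgeR called 0 kinases and 0.0% of all genes, and listed 3 kinases at an unadjusted p under 0.05, where the share of all genes was 6.24%. DESeq2 called 1 kinase, Camkk1, beside 1.13% of all genes, and listed 4 at an unadjusted p under 0.05, where the share of all genes was 6.54%. Fold changes on the log2(normalized count + 1) scale hardly differ from plain fold changes here, because the lowest value of any kinase was 807 normalized counts.

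Groups were also compared by overlap. Every ketamine mouse lay below every saline mouse in 3 kinases, Camkk1, Camk2g and Camk1d, where 4.66% of all genes did so. Every ketamine mouse lay above every saline mouse in 1 kinase, Camk2d, where 5.69% of all genes did so. An exact permutation test with 3 mice against 3 cannot give a two-sided p under 0.1, and these 4 kinases had that value. All tests are two-sided, and adjusted p-values are those of Benjamini and Hochberg over all genes tested. Nothing in the labels says that the mice of a group came from separate litters or cages, so p-values measure only the spread between these mice, and fewer cells of a type and less RNA per cell cannot be told apart in tissue of this kind.

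**Figure D2:**
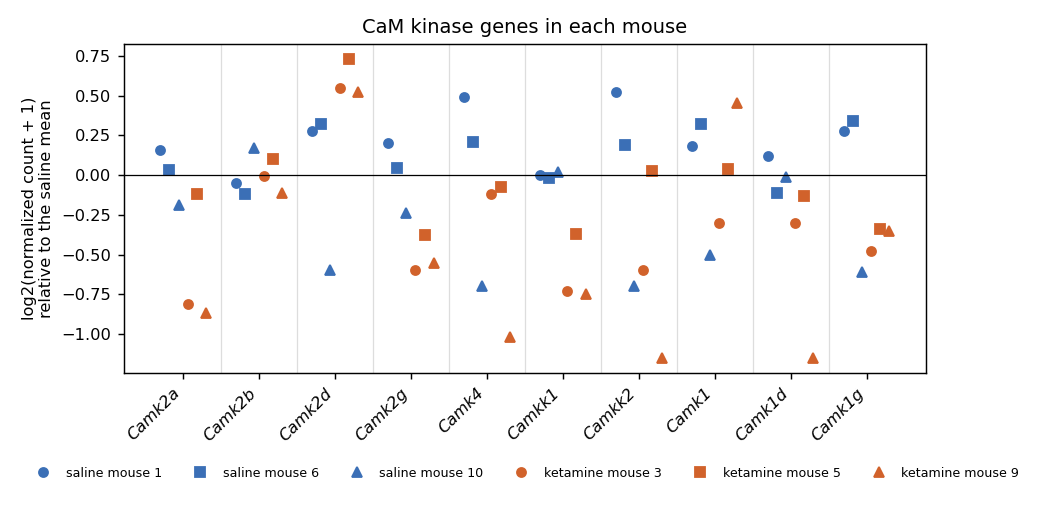
Log2(normalized count + 1) of each CaM kinase gene minus its mean over the 3 saline mice, with a point for each of 3 saline mice (blue) and 3 ketamine mice (orange). For Camkk1 the saline mice lie between -0.019 and 0.021 while all ketamine mice lie between -0.75 and -0.37, and saline mouse 10 lies below the other saline mice for 7 kinases.

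The kinases at the head of the cascade are given first. Camkk1 (ENSMUSG00000020785), on the plus strand of chromosome 11 from 72832510 to 72855575, had 4601, 4544 and 4673 normalized counts in saline mice 1, 6 and 10. It had 2781, 3563 and 2737 in ketamine mice 3, 5 and 9. The saline values are close together, with a coefficient of variation of 1.40%, and all ketamine mice lie well below them. The log2 fold change was -0.62 (standard error 0.142, 95% interval -0.95 to -0.28, unadjusted p = 0.00317, adjusted p = 0.401 by limma, rank 125 of 16127 by p). Dropping any single mouse left the estimate between -0.74 and -0.55. DESeq2 gave -0.60 (standard error 0.165) with an adjusted p of 0.0290 over the same genes, and 0.0510 when all genes with a read entered the fit, so that its call rests on the genes included. edgeR gave -0.59 with an adjusted p of 0.428.

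Camkk2 (ENSMUSG00000029471), the partner enzyme that also phosphorylates AMP-activated protein kinase, lies on the minus strand of chromosome 5 from 123183213 to 123229391. It had 7448, 5930 and 3202 normalized counts in saline mice 1, 6 and 10 against 3438, 5294 and 2342 in ketamine mice 3, 5 and 9. Saline mouse 10 lies among the ketamine mice, so the groups overlap. This was a log2 fold change of -0.58 (95% interval -1.48 to 0.33, adjusted p = 0.999 by limma, exact permutation p = 0.3). Without saline mouse 10 it was -0.93 (adjusted p = 0.403 by limma) and without ketamine mouse 9 it was -0.29 (adjusted p = 0.832). The log2 ratio of Camkk1 to Camkk2 within a library averaged -0.18 ± 0.645 under saline against -0.22 ± 0.405 under ketamine (SD, n = 3 each, exact permutation p = 1.0). Its difference, -0.040, took the opposite sign without saline mouse 10, at 0.32.

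CaMKIV is encoded by Camk4 (ENSMUSG00000038128), on the plus strand of chromosome 18 from 33098695 to 33355421. Camk4 had 12424, 10259 and 5439 normalized counts in saline mice 1, 6 and 10 against 8133, 8404 and 4378 in ketamine mice 3, 5 and 9. In each group 1 mouse, saline mouse 10 and ketamine mouse 9, lies far below the others. The log2 fold change was -0.40 (95% interval -1.27 to 0.47, adjusted p = 0.999 by limma, exact permutation p = 0.5). It was -0.76 without saline mouse 10 and -0.098 without ketamine mouse 9.

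None of the 3 CaMKI genes was called, and the intervals of all 3 spanned 0. Camk1d (ENSMUSG00000039145), on the minus strand of chromosome 2 from 5214503 to 5635561, had 5392, 4585 and 4914 normalized counts in saline mice 1, 6 and 10 against 4020, 4526 and 2230 in ketamine mice 3, 5 and 9. All ketamine mice lie below all saline mice, by a narrow margin for ketamine mouse 5 and a wide one for ketamine mouse 9. Its log2 fold change was -0.53 (95% interval -1.15 to 0.093, adjusted p = 0.945 by limma), and -0.22 without ketamine mouse 9. Camk1g (ENSMUSG00000016179), on the minus strand of chromosome 1 from 195172540 to 195196491, had 1497, 1563 and 807 normalized counts in saline mice 1, 6 and 10 against 886, 977 and 967 in ketamine mice 3, 5 and 9. The ketamine mice lie close together, below saline mice 1 and 6 and above saline mouse 10. Its log2 fold change was -0.39 (95% interval -0.99 to 0.21, adjusted p = 0.999 by limma, exact permutation p = 0.4). Without saline mouse 10 it was -0.70 (unadjusted p = 0.00179, adjusted p = 0.222 by limma). Camk1 (ENSMUSG00000030272), on the minus strand of chromosome 6 from 113284118 to 113293978, had 2485, 2739 and 1551 normalized counts in saline mice 1, 6 and 10. It had 1784, 2256 and 2999 in ketamine mice 3, 5 and 9. The groups overlap widely, and Camk1 is the only kinase that was highest in ketamine mouse 9. The estimate was a log2 fold change of 0.065 (95% interval -0.57 to 0.70, adjusted p = 0.999 by limma, exact permutation p = 0.9), and its sign turned with saline mouse 10 left out (-0.19) and with ketamine mouse 9 left out (-0.13).

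None of the 4 CaMKII genes was called by limma, edgeR or DESeq2, and differences between them were tested only for Camk2a against Camk2b. Camk2a (ENSMUSG00000024617), which encodes the alpha subunit that predominates in forebrain excitatory neurons, lies on the plus strand of chromosome 18 from 61085272 to 61147806. It had 121654, 111530 and 95627 normalized counts in saline mice 1, 6 and 10 against 62372, 100076 and 59692 in ketamine mice 3, 5 and 9. Ketamine mice 3 and 9 lie far below every saline mouse, whereas ketamine mouse 5 lies above saline mouse 10. The log2 fold change was -0.60 (standard error 0.259, 95% interval -1.21 to 0.0094, unadjusted p = 0.0528, adjusted p = 0.865 by limma, exact permutation p = 0.2), and dropping any single mouse left it between -0.84 and -0.47.

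Camk2b (ENSMUSG00000057897), which encodes the beta subunit that binds actin filaments, lies on the minus strand of chromosome 11 from 5869647 to 5966365. It was the steadiest of the family across all 6 mice, with 23234, 22054 and 27065 normalized counts in saline mice 1, 6 and 10 against 23889, 25783 and 22229 in ketamine mice 3, 5 and 9. The highest value was 1.23 times the lowest, against between 1.71 and 3.18 times for the other kinases. The log2 fold change was -0.0062 (95% interval -0.37 to 0.36, adjusted p = 0.9995 by limma, exact permutation p = 1.0), and its sign turned under 4 of 16 alternatives. The log2 ratio of Camk2a to Camk2b within a library was 2.39, 2.34 and 1.82 in saline mice 1, 6 and 10 against 1.38, 1.96 and 1.43 in ketamine mice 3, 5 and 9. The mean ratio was lower in ketamine by 0.59 on the log2 scale, but ketamine mouse 5 lies above saline mouse 10 (difference -0.59, exact permutation p = 0.2).

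Camk2g (ENSMUSG00000021820), which encodes the gamma subunit, a carrier of calmodulin to the nucleus, lies on the minus strand of chromosome 14 from 21554097 to 21613310. It had 10289, 9282 and 7602 normalized counts in saline mice 1, 6 and 10 against 5922, 6885 and 6138 in ketamine mice 3, 5 and 9. The groups do not overlap, and saline mouse 10 again lies nearest to the ketamine mice. This amounted to a log2 fold change of -0.51 (standard error 0.156, 95% interval -0.88 to -0.15, unadjusted p = 0.0129, adjusted p = 0.636 by limma). DESeq2 gave -0.51 with an adjusted p of 0.146. Dropping any single mouse left the estimate between -0.63 and -0.41.

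Camk2d (ENSMUSG00000053819), which encodes the delta subunit, the main form in the heart, lies on the plus strand of chromosome 3 from 126299220 to 126547972. It was the only kinase in which every ketamine mouse was higher than every saline mouse. It had 2993, 3070 and 1631 normalized counts in saline mice 1, 6 and 10 against 3605, 4097 and 3528 in ketamine mice 3, 5 and 9. The log2 fold change was 0.60 (standard error 0.252, 95% interval 0.0078 to 1.19, unadjusted p = 0.0478, adjusted p = 0.855 by limma). Saline mouse 10 carried much of it: without that mouse the estimate was 0.30 (adjusted p = 0.507 by limma). Leaving that mouse out could not make the groups overlap, since they were apart with it included. Without it, 15.1% of all genes lay higher in every ketamine mouse.

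Because Camk2a and Camk2g had lower and Camk2d higher values in ketamine mice, the makeup of the CaMKII transcripts was set out per kilobase of exon. Camk2d made up 0.880%, 0.981% and 0.582% of the sum of the 4 genes in saline mice 1, 6 and 10 against 1.81%, 1.42% and 1.84% in ketamine mice 3, 5 and 9. With the longest coding transcripts as lengths these shares were between 1.31% and 2.25% in saline mice against between 3.18% and 4.02% in ketamine mice, so the groups were apart with either length. Camk2a made up 77.0%, 76.7% and 73.4% in saline mice against 67.3%, 74.9% and 67.1% in ketamine mice, with overlap. Camk2b took between 12.03% and 16.99% in saline mice against between 15.8% and 21.1% in ketamine mice, and Camk2g between 9.03% and 10.1% and between 7.97% and 10.7%. Since Camk2a makes up most of the sum, a lower Camk2a value raises the shares of the other genes without any change in their own counts. These shares, that of Camk2d included, are therefore given as a description, with no test.

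**Figure D3:**
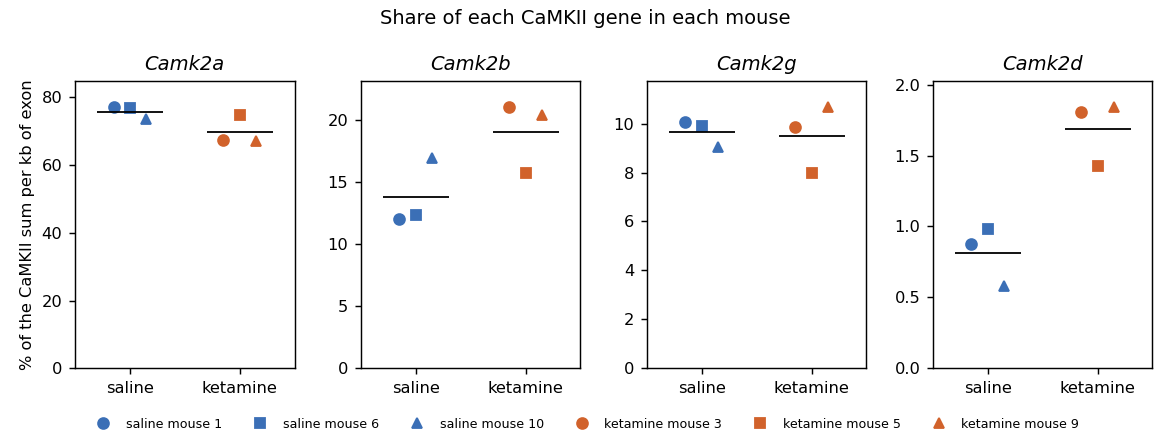
Share of each CaMKII gene in the sum of the 4 genes, in percent of normalized counts per kilobase of exon, in 3 saline mice (blue) and 3 ketamine mice (orange), with a line at each group mean. Camk2d lies between 0.582% and 0.981% in saline mice against between 1.42% and 1.84% in ketamine mice, while the groups overlap for the other subunits.

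The order of the mice was counted across the family. Saline mouse 10 was the lowest saline mouse in 7 kinases and the highest in 2, Camk2b and Camkk1. Ketamine mouse 5 was the highest ketamine mouse in 9 of the 10 kinases, and ketamine mouse 9 the lowest in 7. With saline mouse 10 left out, a choice made after seeing the data, every ketamine mouse lay below both remaining saline mice in 7 kinases, where 16.7% of all genes did so. These were Camk2a, Camk2g, Camk4, Camkk1, Camkk2, Camk1d and Camk1g. With any other mouse left out, the number was 3 or 4, where between 6.1% and 15.3% of all genes did so. Camkk1, Camk2g, Camk1d and Camk2d were apart with every mouse kept, so leaving a mouse out could not make them overlap. Their place in these counts was fixed in advance, as it was for every gene already apart in the shares of all genes.

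**Figure D4:**
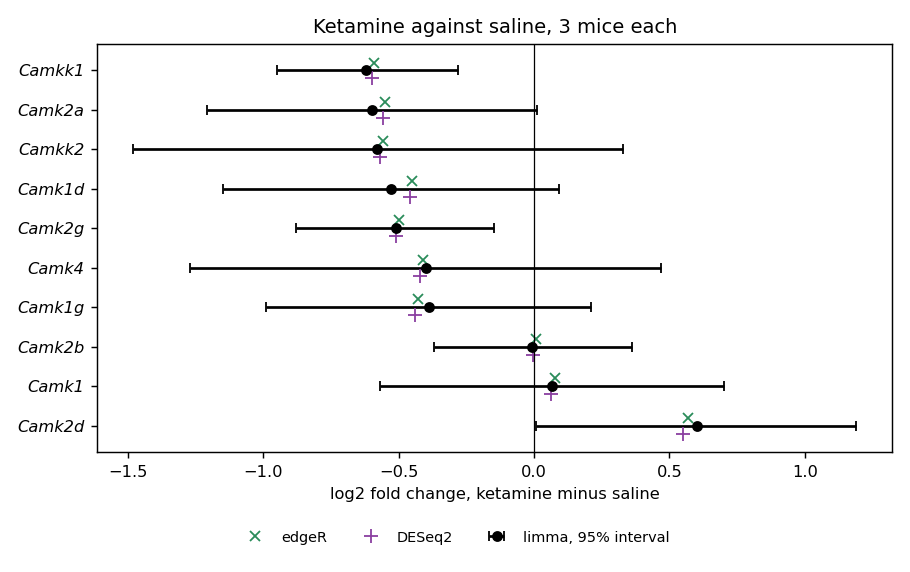
Log2 fold change (ketamine minus saline, 3 mice each) of each CaM kinase gene by limma with its 95% interval (black), by edgeR (green crosses) and by DESeq2 (purple plus signs). The limma interval lies below 0 for Camkk1 (-0.95 to -0.28) and Camk2g (-0.88 to -0.15), lies just above 0 for Camk2d (0.0078 to 1.19) and spans 0 for the other 7 kinases.

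Some lists of cell type markers moved with the groups or with single mice, and 4 of them are set out here. Sums over markers of parvalbumin interneurons, thalamic neurons, astrocytes, oligodendrocytes, microglia and choroid plexus overlapped between the groups. The sum over vascular markers lay between 8238 and 8790 in saline mice against between 6955 and 8204 in ketamine mice. The summed count of 12 markers of cortical excitatory neurons was 72500, 70460 and 51230 in saline mice 1, 6 and 10 against 35760, 59310 and 47520 in ketamine mice 3, 5 and 9, with 10 of the 12 lower in ketamine by their estimates. Relative to the saline mean, these 12 markers averaged -0.72, -0.098 and -0.48 on the log2 scale in ketamine mice 3, 5 and 9. Camk2a stood at -0.81, -0.12 and -0.87 in the same mice. In both, ketamine mouse 5 was the ketamine mouse nearest to saline and saline mouse 10 the lowest saline mouse. Camk2a was lowest in ketamine mouse 9, close to ketamine mouse 3, and the marker sum was lowest in ketamine mouse 3. The sum over 9 markers of GABAergic neurons lay between 26410 and 30830 in saline mice against between 35830 and 54580 in ketamine mice, with 9 of 9 estimates higher. The sum over 11 olfactory bulb markers lay between 8303 and 12780 in saline mice against 18280, 16320 and 42390 in ketamine mice 3, 5 and 9. Of these markers 10 had higher estimates and 1 a lower one. The sum over 16 striatal markers lay between 13270 and 17120 in saline mice against 79210, 42450 and 13760 in ketamine mice 3, 5 and 9. In these 4 lists only Isl1, a striatal marker, was at 0 in any library. Relative to the saline mean, Camkk1 stood at -0.73, -0.37 and -0.75 in ketamine mice 3, 5 and 9, so ketamine mouse 5 was nearest to saline. The same mouse was nearest for the markers of excitatory neurons, of GABAergic neurons (1.26, 0.75 and 1.44 on average) and of the olfactory bulb (1.85, 1.5 and 3.74). Ketamine mouse 5 was also the ketamine mouse most like saline across genes by r, so its nearness is not particular to Camk2a, Camkk1 or these markers. For the striatal markers ketamine mouse 9 was nearest, at -0.069 against 3.32 and 2.25 in ketamine mice 3 and 5. What part these differences in markers have in the values of the kinases was not tested.

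By the root mean square difference over the 6 libraries of log2(normalized count + 1) relative to the saline mean, the genes nearest to Camkk1 among 11950 compared were Gpr22, an orphan receptor, at 0.0524, Zfpm1, a cofactor of GATA factors, at 0.0758, and Adam11, a membrane protein of the ADAM family, at 0.0812. Gpr22 ran from 1906 to 2102 normalized counts in saline mice but from 1226 to 1487 in ketamine mice. The genes nearest to Camk2a were Pla2g4e, a phospholipase, at 0.0530, Extl1, a glycosyltransferase, at 0.0593 and Mtmr12, a myotubularin-related protein, at 0.0859. These likenesses describe 6 libraries and were not tested.

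Genes that act around the kinases were grouped by role, in lists chosen for the pathway. limma and edgeR called 0 genes of any of these lists, and DESeq2 called 2, Pcp4l1 and Sik1, where it called 1.13% of all genes. The genes named are the 3 with the smallest p in each list, and any other was chosen after its values were seen. In the list of calmodulin, proteins that bind it and their relatives, 4 of 8 tested genes had higher and 4 lower estimates in ketamine, and the median log2 fold change was 0.19, against -0.015 over all genes tested, with 4 at an unadjusted p under 0.05 by limma, where the share of all genes was 5.81%. Pcp4l1, which encodes a relative of the calmodulin-binding protein Pcp4, had 1386, 1236 and 2235 normalized counts in saline mice 1, 6 and 10 against 6772, 5137 and 9372 in ketamine mice 3, 5 and 9, and DESeq2 called it higher (adjusted p = 2.02e-08, 0.173 by limma). Pcp4 had a log2 fold change of 0.71, and Nrgn, which encodes neurogranin of excitatory spines, one of -0.87. Nrgn had 49137, 52229 and 42478 normalized counts in saline mice 1, 6 and 10 against 15944, 27260 and 40781 in ketamine mice 3, 5 and 9. The groups did not overlap in either, Pcp4 being higher and Nrgn lower in ketamine mice, where 5.69% of all genes lay higher and 4.66% lower in this way. Their adjusted p-values were 0.579 and 0.797 by limma.

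Among inhibitors of CaMKII and phosphatases that oppose the kinases, 4 of 10 tested genes had higher and 6 lower estimates (median -0.083), with 0 at an unadjusted p under 0.05 by limma (5.81% of all genes). Ppp1r1b, which encodes the phosphatase inhibitor DARPP-32 and is itself among the striatal markers, had 2133, 1769 and 1996 normalized counts in saline mice 1, 6 and 10 against 12441, 5942 and 1851 in ketamine mice 3, 5 and 9. It is high in ketamine mice 3 and 5 alone, the mice with the high striatal sums. Ppp1cc, which encodes a catalytic subunit of protein phosphatase 1, had a log2 fold change of 0.44 with overlap (adjusted p = 0.931 by limma). Camk2n1, the main protein inhibitor of CaMKII in brain, had 87708, 94928 and 61660 normalized counts in saline mice 1, 6 and 10 against 38305, 54981 and 85025 in ketamine mice 3, 5 and 9. The groups overlap, and ketamine mouse 9, which had the least Camk2a, had the most Camk2n1 of its group. Its log2 fold change was -0.51 (adjusted p = 0.999 by limma).

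Other kinases of the CaMK group, 17 genes, had 7 higher and 10 lower estimates (median -0.036), with 3 at an unadjusted p under 0.05 by limma (5.81% of all genes). Those named are Mylk, which encodes myosin light chain kinase, Pnck, which encodes CaMKI beta, and Dclk2, which encodes a doublecortin-like kinase. In all 3 every ketamine mouse was above every saline mouse, as in 5.69% of all genes, with log2 fold changes of 0.61, 0.45 and 0.32 (adjusted p = 0.425, 0.797 and 0.797 by limma). Pnck had 1520, 1662 and 1357 normalized counts in saline mice 1, 6 and 10 against 2486, 1698 and 2079 in ketamine mice 3, 5 and 9, so the margin was narrow for ketamine mouse 5.

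Of 14 partners and substrates of CaMKII at the postsynapse, 3 had higher and 11 lower estimates (median -0.26), with 2 at an unadjusted p under 0.05 by limma (5.81% of all genes). Tiam1, which encodes an exchange factor for Rac, had a log2 fold change of 0.68 with the groups apart, as 5.69% of all genes were in this direction. Kalrn, which encodes kalirin, had one of -0.79 and Actn2, which encodes an alpha-actinin of the spine, one of 0.78, both with overlap. The adjusted p-values of Tiam1, Kalrn and Actn2 by limma were 0.677, 0.789 and 0.909. Grin1, which encodes the obligatory NMDA receptor subunit, had a log2 fold change of -0.33 (adjusted p = 0.999).

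Of 23 genes that CaMKK, CaMKI or CaMKIV act on or through, 9 had higher and 14 lower estimates (median -0.0056), with 2 at an unadjusted p under 0.05 by limma (5.81% of all genes). Sik1, which encodes a salt-inducible kinase that phosphorylates coactivators of CREB, had 202, 231 and 352.5 normalized counts in saline mice 1, 6 and 10 against 623, 734 and 492 in ketamine mice 3, 5 and 9. DESeq2 called it higher (log2 fold change 1.24, adjusted p = 0.00331), while limma gave 1.25 with an adjusted p of 0.328. Prkag2, a regulatory subunit of AMP-activated protein kinase, had a log2 fold change of -0.36 (adjusted p = 0.788 by limma) with the groups apart, as 4.66% of all genes were in this direction. Crtc3, a coactivator of CREB, had one of 0.36 with overlap (adjusted p = 0.919 by limma).

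Calcineurin is the phosphatase that calmodulin activates alongside these kinases. Of 13 genes of calcineurin, its regulators and its NFAT targets, 8 had higher and 5 lower estimates (median 0.060), with 2 at an unadjusted p under 0.05 by limma (5.81% of all genes). The regulatory subunit gene Ppp3r1 had 31908, 33754 and 28518 normalized counts in saline mice 1, 6 and 10 against 19677, 21882 and 25387 in ketamine mice 3, 5 and 9. The catalytic subunit gene Ppp3ca had between 42862 and 50521 in saline mice against between 33643 and 36977 in ketamine mice. Both were apart between the groups, as 4.66% of all genes were in this direction, with log2 fold changes of -0.50 and -0.41 (adjusted p = 0.699 and 0.797 by limma). Rcan3, which encodes a regulator of calcineurin, had a log2 fold change of 0.73 with overlap (adjusted p = 0.887 by limma).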

How the data were processed

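RNA was sequenced from the PLc of 3 saline and 3 ketamine mice. The authors aligned paired-end reads of 100 bases to mm9 with Tophat 2.0.11, and used HTSeq for counts per gene and DESeq2 for their analysis. Annotation and strand setting are not given in the sources used here. The deposited signal is normalized counts, that is, reads scaled by the authors with 1 size factor per library. Whole reads were recovered from the step between low values (100.0% of values). No pair of libraries was a duplicate (chi-square per degree of freedom of at least 10.5). Mice carry different numbers in each group and were not paired.

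Groups were compared with limma 3.58.1 in R 4.3.3 on log2(normalized count + 1), with trended prior variance, over the 16127 genes averaging at least 10 normalized counts. DESeq2 1.42.0, the tool of the study, and edgeR 4.0.16 were run on the recovered reads as alternatives, since the deposited values are not counts. limma, edgeR and DESeq2 were also run on simulated data, with planted changes larger than that of any kinase here. That run does not show how well changes of the size seen in the kinases are found. Exon lengths, coordinates and coding windows come from GENCODE M1 (mm9). The genes named are the 10 kinases, the 3 of each pathway list with the smallest p by limma and the 3 nearest in pattern to Camk2a and Camkk1. Grin1, Slc17a7, Isl1, Trh and Cdhr1 are named outside this rule, after their values were seen. Members and lists were chosen with earlier results of these data known.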

Additional observations from a re-analysis of the deposited data

How the results depend on the processing

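The alternatives were pseudocounts of 0.1 and 5, no filter or a minimum mean of 100 normalized counts, recomputed size factors, upper-quartile scaling, no variance trend, edgeR, DESeq2, and dropping single mice. A fit of DESeq2 to all genes with a read was chosen after seeing the data. No paired analysis was possible because the groups share no mouse number. DESeq2 called 182 genes over the filtered table and 185 over all genes with a read, where limma called 0. It called 1 kinase over the filtered table, Camkk1 (log2 fold change -0.60), and 0 over all genes with a read. With a mouse left out limma called between 0 and 1 genes, Trh without ketamine mouse 5 and Cdhr1 without ketamine mouse 9. Neither is a kinase, and Cdhr1 is among the olfactory bulb markers. The sign of the Camk2b estimate turned with upper-quartile scaling (0.023) and edgeR (0.0059), and with a mouse left out it ranged from -0.068 to 0.080. Camk1 ranged from -0.19 to 0.25 with a mouse left out. The difference in the log2 ratio of Camkk1 to Camkk2 ranged from -0.30 to 0.32, with the opposite sign without saline mouse 10, ketamine mouse 3 (0.0045) or ketamine mouse 5 (0.14). The cause of these turns was not tested. The other 8 kinases kept their direction under all 16 alternatives. With 3 mice a group, the 95% intervals of 7 kinases spanned 0. Every kinase had at least 807 normalized counts in each library, and the part of depth in these intervals was not tested.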
